A study of Mus musculus with 6 samples.

Results

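The genes described here are 10 members of the NF-kB response: 6 that carry or limit the signal (Nfkbia, Nfkbiz, Tnfaip3, Nfkb1, Nfkb2 and Relb), 3 inflammatory effectors (Ptgs2, Nos2 and Icam1) and Socs3, the feedback inhibitor of cytokine receptors. They were taken by gene symbol from a deposited table of 23361 genes, in which each of the 10 has 1 row and was tested by the authors. None of them passed the authors' test between the conditions, and Ptgs2 was the member with the largest difference.

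RNA was sequenced from cells that were sorted on the surface proteoglycan Sdc4 from collagenase-treated hindlimb muscle of mice aged 4 months and carry the label of primary satellite cells, which are muscle stem cells. The labels give 3 AUF1-null (KO) and 3 wild type (WT) samples, from mice with C57BL/6 and 129 in their background, and leave it unsaid whether each sample was a mouse of its own, so the deposited p-values may reflect technical spread only. AUF1, encoded by Hnrnpd, binds AU-rich elements of mRNAs and affects their stability, and the comparison asks which transcripts differ between the genotypes. The authors' deposited table has 1 value per gene for each of its conditions, pooled over samples on the FPKM scale (fragments scaled to transcript length and to library size), so no SD stands beside a value.

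The conditions in the table are named q2 and q1, and the labels do not tie either name to a genotype. Directions are therefore those of q2 relative to q1, not of a genotype. Hnrnpd itself was listed at 5.59 FPKM in q2 and 7.498 FPKM in q1 in the authors' deposited table, with a log2 fold change of -0.42 (Cuffdiff q = 0.999), and does not identify the knockout condition. Of 14858 tested genes, 91 were called at a deposited q below 0.05, or 0.612%. For the depth of single samples the sources used here give no value.

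NF-kB transcription factors are dimers of Rel proteins that inhibitors of the IkB family hold in the cytoplasm. Cytokines or microbial products activate a kinase complex that marks the inhibitors for destruction, and the freed dimers enter the nucleus. Among the genes they induce are their own inhibitors, so that the response limits itself, and effectors that make prostaglandins and nitric oxide and bind leukocytes. In muscle this pathway is known from inflammation after injury and from wasting.

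The 3' UTRs of these genes and promoter windows of 6 of them were searched for words that AUF1 and NF-kB are known to bind. Many AU-rich elements, though not all, hold copies of ATTTA, and the longer word TATTTAT contains it. In the longest 3' UTR annotated for each gene (GENCODE vM21, GRCm38), read on the mRNA strand, 9 of the 10 genes hold ATTTA and 6 hold TATTTAT. The first TATTTAT of Ptgs2, Socs3, Nfkbia, Nos2 and Icam1 is printed here in 30 bases, with every base that belongs to a match in capitals.

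Ptgs2, chr1:150105786-150105815, plus strand: tctactgaccaTATTTATTTATTTATgtga
Socs3, chr11:117966138-117966167, minus strand: ctttgcacataTATTTATATTTATactcag
Nfkbia, chr12:55489607-55489636, minus strand: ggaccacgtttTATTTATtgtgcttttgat
Nos2, chr11:78960096-78960125, plus strand: ctatgtacagaTATTTATacttcatattta
Icam1, chr9:21028314-21028343, plus strand: tcttcttgatgTATTTATtaatttagagtt

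The stretch of Ptgs2 begins close to its stop codon, with the first match at base 15 of a 3' UTR of 2445 bases, and holds 3 overlapping matches. That of Socs3 lies near the other end, with the first match at base 1397 of 1474, and holds 2. Nfkbia, Nos2 and Icam1 each hold 1 match in the stretch and 2 in the whole 3' UTR, and Tnfaip3 also holds 2. Among the 13053 tested genes with an annotated 3' UTR, 29.7% hold TATTTAT and 69.3% hold ATTTA, so neither word is rare. Because long 3' UTRs hold more words, each gene was also set beside tested genes whose 3' UTR is within 20% of its length. In those, the share with TATTTAT was 44.4% for the length of Ptgs2, 36.9% for Tnfaip3, 32.4% for Socs3, 20.8% for Icam1, 14.4% for Nfkbia and 14.3% for Nos2.

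Ptgs2 holds 14 copies of ATTTA, against a median of 4 in tested genes of similar 3' UTR length, of which 0.766% hold as many or more. Nfkb1 holds 5 against a median of 1 and Icam1 4 against a median of 1. The share of genes of similar length with as many or more was 3.74% for Nfkb1 and 10.9% for Icam1. Tnfaip3 holds 5 against a median of 3, and Nfkbiz and Socs3 hold 4 each against a median of 2. Nos2 holds 3 and Nfkbia 2, both against a median of 1, and the share with as many or more was 9.28% for Nos2 and 22.2% for Nfkbia. Nfkb2 holds 1 against a median of 1, and Relb none against a median of 0. A word is a description of the sequence; binding of AUF1 was not measured here.

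**Figure D1:**
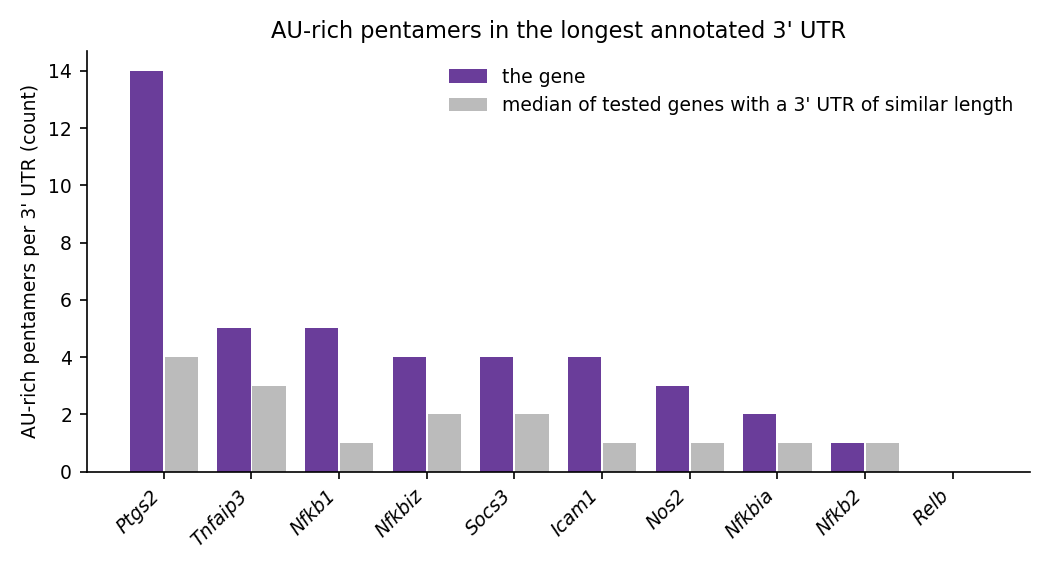
Number of AU-rich pentamers (y axis, count) in the longest annotated 3' UTR of each of the 10 genes (purple bars), beside the median of tested genes whose 3' UTR is within 20% of the same length (grey bars). Ptgs2 stands highest with 14 against a median of 4, and Relb has none.

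The kappa-B consensus, the DNA word that NF-kB dimers bind, was searched on both strands in RefSeq promoter windows of GRCm38.p6 that run from 250 bases before to 50 bases after a start. Windows of 6 of the genes were used (Ptgs2, Icam1, Tnfaip3, Socs3, Nfkbia and Nfkb2); Nfkb1, Relb, Nfkbiz and Nos2 are named only. Matches lay in the windows of 3 of them, the feedback inhibitors Nfkbia and Tnfaip3 and the precursor gene Nfkb2, as against 4.51% of all 32851 windows and 6.36% of the 10783 tested genes with a window. The match nearest to the start of Tnfaip3, the match of Nfkbia and the first matches of Nfkb2 are shown with their bases in capitals.

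Nfkbia, chr12:55492657-55492686, minus strand: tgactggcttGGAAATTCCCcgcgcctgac
Tnfaip3, chr10:19015403-19015432, minus strand: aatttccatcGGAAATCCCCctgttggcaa
Nfkb2, chr19:46304688-46304717, plus strand: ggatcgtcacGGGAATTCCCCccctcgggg

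The word of Nfkb2 is made of 2 overlapping matches, and that window holds 3 positions in all, while this window of Tnfaip3 holds 2 and that of Nfkbia 1. Nfkb2 has 2 further windows at other starts, which overlap and hold 2 positions and 1, and Tnfaip3 has another with none. No match in these windows was found for Ptgs2, Icam1 and Socs3, which says only that these letters are not within the windows searched. Sequence outside these windows, enhancers included, was not searched.

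Levels of the 10 genes spanned 89.2-fold in q2 and 215-fold in q1, and they fell into an abundant and a moderate group. Nfkbia, Socs3, Icam1 and Nfkbiz lay between 82.0 and 718 FPKM in q2 and between 88.9 and 965 FPKM in q1 in the authors' deposited table. The other 6 lay between 8.05 and 21.0 FPKM in q2 and between 4.48 and 23.4 FPKM in q1. The order from highest to lowest in q2 was Nfkbia, Socs3, Icam1, Nfkbiz, Nos2, Tnfaip3, Nfkb1, Nfkb2, Ptgs2 and Relb, and in q1 only Ptgs2 and Relb changed places. With no spread between samples, it cannot be said which neighbours in this order differ; in q2, Tnfaip3, Nfkb1 and Nfkb2 lay between 16.3 and 16.4 FPKM in the authors' deposited table. For comparison, the median tested gene was listed at 7.60 FPKM in both conditions, which all 10 genes exceeded in q2 and 9 of them in q1.

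**Figure D2:**
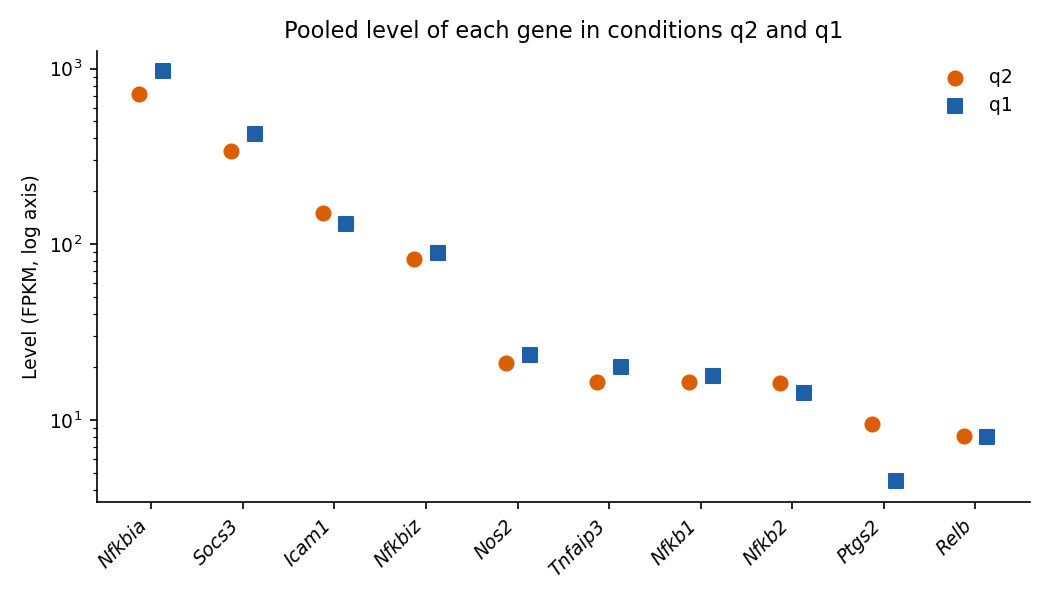
Pooled level of each gene (FPKM, log axis) in conditions q2 (orange circles, left) and q1 (blue squares, right), ordered by the level in q2. The 2 symbols lie close together for every gene except Ptgs2, listed at 9.47 FPKM in q2 and 4.48 FPKM in q1.

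None of the 10 genes was called at the authors' Cuffdiff q below 0.05, against 0.612% of all tested genes, and 1 of 10 had an unadjusted deposited p below 0.05, against 5.99% of all tested genes (3.72% counting those higher in q2 only). Of the 10 log2 fold changes, 4 lay above and 6 below 0, with a median of -0.12 beside -0.01 for all tested genes. Apart from Ptgs2, the members ranged from -0.43 to 0.21, with unadjusted p between 0.394 and 0.963 and a q of 0.999 each in the authors' deposited table. Positions below are as deposited, in GRCm38, and all 10 are annotated as protein-coding genes. A p that misses the threshold does not show equal levels, and the table gives no interval from which a bound could be drawn.

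**Figure D3:**
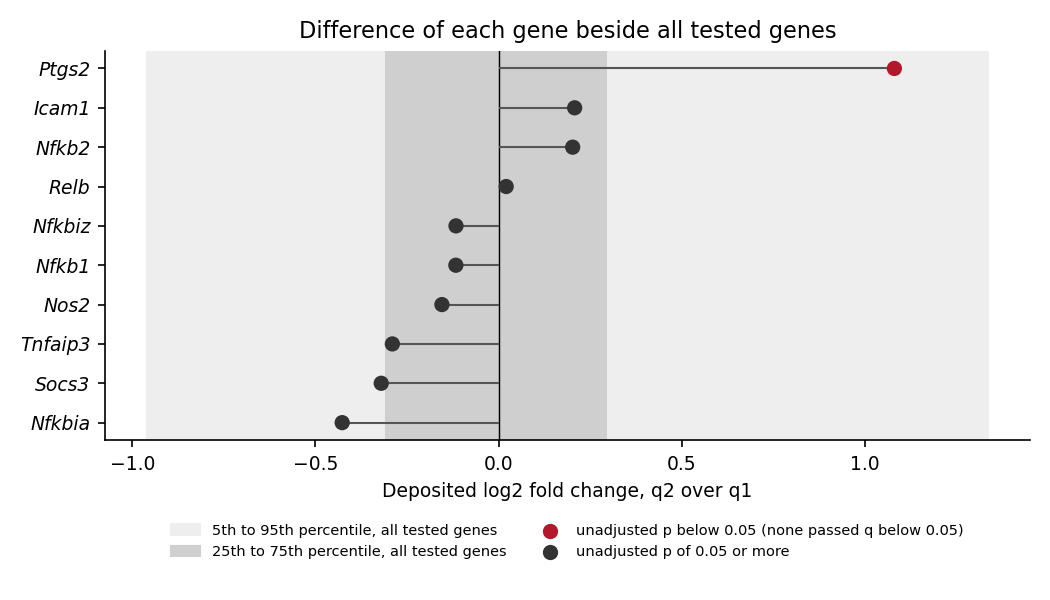
Deposited log2 fold change of q2 over q1 (x axis) for each gene (points), over the 25th to 75th percentile of all tested genes (dark band, -0.31 to 0.29) and their 5th to 95th percentile (light band, -0.96 to 1.33). Of the 10 genes, 7 lie inside the dark band, Socs3 and Nfkbia lie left of it, and Ptgs2 at 1.08 lies inside the light band.

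Nfkbia encodes the IkB alpha inhibitor that is degraded on activation and then resynthesised, a fast feedback loop of the pathway. It was listed at 718 FPKM in q2 and 965 FPKM in q1 in the authors' deposited table, a log2 fold change of -0.43 (Cuffdiff p = 0.394, q = 0.999). This was the lowest log2 fold change of the 10, while 36.9% of all tested genes had a larger one in size. Nfkbia stood at the 99.1st percentile of tested genes in q2 and the 99.4th in q1.

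The position deposited for Nfkbia, chr12:55280814-55492647, spans 211834 bases, while the annotated gene, chr12:55489410-55492647 (GENCODE vM21), spans 3238. This position overlaps those deposited for 3 other tested genes: Psma6, a proteasome subunit gene, Ppp2r3c and 1110008L16Rik. Psma6 was listed at 162 FPKM in q2 and 137 FPKM in q1, and the other 2 at 13.2 FPKM or less in each condition in the authors' deposited table. Whether the overlap affected the value of Nfkbia was not tested.

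Nfkbiz (chr16:55811377-55838641) encodes an atypical nuclear IkB that helps switch on secondary response genes. It was listed at 82.0 FPKM in q2 and 88.9 FPKM in q1 in the authors' deposited table, with a log2 fold change of -0.12 (Cuffdiff p = 0.746, q = 0.999). Tnfaip3 (chr10:19000910-19015410) encodes a ubiquitin-editing enzyme that shuts off signalling from TNF and Toll-like receptors. In the authors' deposited table its levels were 16.4 FPKM in q2 and 20.04 FPKM in q1, with a log2 fold change of -0.29 (Cuffdiff p = 0.457, q = 0.999). All 3 of these genes lay below 0 without passing; of all tested genes, 51.3% lay below 0.

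The 3 Rel family genes among the 10 lay between -0.12 and 0.20 on the log2 scale. Nfkb1 (chr3:135584655-135691547), which encodes the precursor of the canonical DNA-binding subunit, was listed at 16.4 FPKM in q2 and 17.8 FPKM in q1 in the authors' deposited table (log2 fold change -0.12, Cuffdiff p = 0.731). Nfkb2 (chr19:46304737-46327156), the precursor gene of the non-canonical branch, was listed at 16.3 FPKM in q2 and 14.1 FPKM in q1 in the authors' deposited table (log2 fold change 0.20, Cuffdiff p = 0.623). Relb (chr7:19606222-19629438), the partner of the Nfkb2 product, was listed at 8.05 FPKM in q2 and 7.94 FPKM in q1 in the authors' deposited table (log2 fold change 0.02, Cuffdiff p = 0.963). The deposited position of Nfkb2 overlaps that of Psd, a low gene at 2.72 FPKM in q2 and 3.34 FPKM in q1 in the authors' deposited table.

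Rela, the main transactivating subunit, was listed at 59.7 FPKM in q2 and 59.4 FPKM in q1 in the authors' deposited table and did not pass. The level of Relb was 0.135 of that of Rela in q2 and 0.134 in q1, and that of Nfkb1 was 1.01 times that of Nfkb2 in q2 and 1.26 times in q1. Among IkB genes, Nfkbib was listed at 23.9 FPKM in q2 and 17.5 FPKM in q1 and Nfkbie at 15.8 FPKM in q2 and 10.7 FPKM in q1 in the authors' deposited table. Nfkbia was thus 45.5 times as abundant as Nfkbie in q2 and 90.6 times in q1. All 6 Rel and IkB genes outside the 10 (Rela, Rel, Nfkbib, Nfkbie, Nfkbid and Bcl3) lay above 0 (median log2 fold change 0.42). None of the 6 passed, and none had an unadjusted p below 0.05 (lowest Cuffdiff p = 0.153 in the authors' deposited table).

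**Figure D4:**
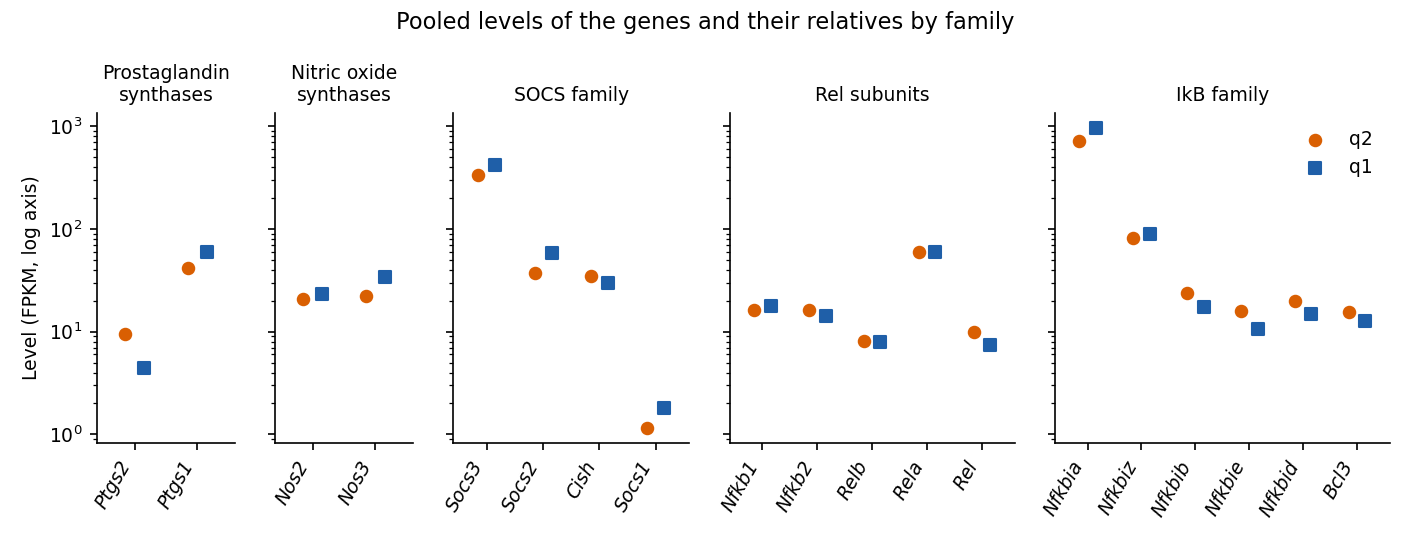
Pooled levels (FPKM, log axis) of the genes and their relatives in conditions q2 (orange circles, left) and q1 (blue squares, right), in panels by family. Ptgs1 lies above Ptgs2 in both conditions, Rela is the highest Rel gene, and Nfkbia and Socs3 are the highest of their families.

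Ptgs2 (chr1:150100124-150108012) encodes the inducible cyclooxygenase, which makes the precursor of prostaglandins and whose mRNA is short-lived. It was listed at 9.47 FPKM in q2 and 4.48 FPKM in q1 in the authors' deposited table, a 2.11-fold difference and a log2 fold change of 1.08 (Cuffdiff p = 0.0104, q = 0.465). Ptgs2 therefore did not pass, although it was the only member with an unadjusted p below 0.05, and 11.2% of all tested genes had a larger log2 fold change in size. Among 4839 tested genes whose mean level was within 2-fold of that of Ptgs2, 24 were called, and the smallest called difference among them was 3.12-fold. With a pseudocount of 1 the difference of Ptgs2 was 1.91-fold.

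The constitutive isozyme Ptgs1 was listed at 42.2 FPKM in q2 and 59.7 FPKM in q1 in the authors' deposited table, a log2 fold change of -0.50 (Cuffdiff p = 0.160). Ptgs1 was thus 4.45 times as abundant as Ptgs2 in q2 and 13.3 times in q1; the difference between these ratios was not tested. None of the 15 tested genes of the prostanoid pathway passed or had an unadjusted p below 0.05, and 10 lay above and 5 below 0. Ptges3, a synthase and cochaperone gene, was the most abundant at 304 FPKM in q2 and 288 FPKM in q1 in the authors' deposited table. The 3' UTR of Ptgs2 is the longest of the 10 and holds the most AU-rich words, shown above. Per kilobase it holds 5.73 copies of ATTTA, below Nfkb1 at 6.66 and Nos2 at 5.98. A link between these words and the difference was not tested.

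Markers of neutrophils and most markers of macrophages or monocytes, cells which can express Ptgs2, also lay above 0. The summed level of 14 neutrophil markers was 15534 FPKM in q2 and 1207 FPKM in q1, and that of 11 macrophage or monocyte markers was 2741 FPKM in q2 and 1307 FPKM in q1. These lists were chosen with earlier results of these data known. Of all tested genes, 48.7% lay above 0 and 0.612% were called. All 14 neutrophil markers lay above 0 and 10 were called. Of the 11 macrophage or monocyte markers, 8 lay above 0 and 2 (Tyrobp and Ccr2) were called. None of either list was at 0 in a condition. The other 3, Csf1r, Emr1 and Mrc1, lay at -0.75, -0.16 and -0.02 on the log2 scale in the authors' deposited table. S100a8, a calprotectin subunit gene, was called at 6478 FPKM in q2 and 426 FPKM in q1, and S100a9 was called at 3185 FPKM in q2 and 222 FPKM in q1 in the authors' deposited table. Lyz2, the lysozyme gene of myeloid cells, and the monocyte gene Cd14 were the most abundant of the other list, at 1504 and 525 FPKM in q2, against 633 and 227 FPKM in q1 in the authors' deposited table, and did not pass. The part of these cells in the values of Ptgs2 was not tested. In RNA from a bulk sort, a different number of cells of a type and a different amount of RNA per cell cannot be told apart.

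Nos2 (chr11:78920859-78960124) encodes the inducible nitric oxide synthase, best known from activated macrophages. It was listed at 21.0 FPKM in q2 and 23.4 FPKM in q1 in the authors' deposited table, with a log2 fold change of -0.15 (Cuffdiff p = 0.682, q = 0.999). The endothelial isozyme gene Nos3 was listed at 22.2 FPKM in q2 and 34.5 FPKM in q1 in the authors' deposited table (Cuffdiff p = 0.106) and did not pass, so the level of Nos2 was 0.948 of that of Nos3 in q2 and 0.679 in q1. Of 12 tested genes of nitric oxide and arginine metabolism, 3 lay above and 9 below 0, with a median of -0.33 and none with an unadjusted p below 0.05. The most abundant by the mean of both conditions were Ddah2, which degrades inhibitors of these enzymes, at 66.1 FPKM in q2 and 80.9 FPKM in q1, and Gucy1a3, a subunit of the nitric oxide receptor, at 34.3 FPKM in q2 and 47.6 FPKM in q1 in the authors' deposited table.

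Icam1 (chr9:21015960-21028796) encodes the endothelial and leukocyte adhesion molecule that binds beta2 integrins. It was listed at 150.4 FPKM in q2 and 130.3 FPKM in q1 in the authors' deposited table, with a log2 fold change of 0.21 (Cuffdiff p = 0.557, q = 0.999). Of the 13 tested adhesion partners reported here, none passed, and 3 had an unadjusted Cuffdiff p below 0.05. Over all tested genes this share was 5.99%, or 3.72% counting those higher in q2 only. The list was chosen with earlier results of these data known. These were the leukocyte-borne Selplg, Itgb2 and Itgal, whose log2 fold changes in the authors' deposited table were 1.54, 1.05 and 1.42.

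Partners known from endothelial cells lay below 0, while Icam1 itself lay at 0.21. Selp, Sele, Vcam1, Pecam1 and Icam2 lay at -0.92, -0.50, -0.48, -0.37 and -0.13 on the log2 scale in the authors' deposited table, and none passed. Vcam1 is not particular to endothelial cells and is also among the satellite cell markers given below. Pecam1 is also among the endothelial markers that follow. Of the other partners, Itgb1 and Jam2 lay at -0.67 and -0.42, and Itgam, Itga4 and Icam4 at 0.68, 0.60 and 0.42. The partner list as a whole had 6 genes above and 7 below 0, with a median of -0.13. Beside these values, all 10 endothelial markers lay below 0 with none called and a median of -0.27, and their summed level was 14521 FPKM in q2 and 17297 FPKM in q1, mostly from Fabp4 at 12032 FPKM in q2 and 14386 FPKM in q1 in the authors' deposited table. Egfl7 was next at 822 FPKM in q2 and 911 FPKM in q1 in the authors' deposited table. Of all tested genes, 51.3% lay below 0. The part of endothelial cells in the level of Icam1 was not tested.

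Socs3 (chr11:117966087-117969366) encodes the inhibitor induced through Stat3 that blocks signalling from receptors of the IL-6 family. It was listed at 339 FPKM in q2 and 423 FPKM in q1 in the authors' deposited table, with a log2 fold change of -0.32 (Cuffdiff p = 0.411, q = 0.999). Its relatives were lower in level: Socs2 was listed at 37.2 FPKM in q2 and 58.5 FPKM in q1, Cish at 34.6 FPKM in q2 and 29.99 FPKM in q1, and Socs1 at 1.15 FPKM in q2 and 1.79 FPKM in q1 in the authors' deposited table, and none passed. Socs3 was thus 9.10 times as abundant as Socs2 in q2 and 7.22 times in q1.

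None of the 16 tested genes of the cytokine receptor and Stat3 axis passed, with 8 above and 8 below 0. The cytokine Il6 was listed at 441 FPKM in q2 and 362 FPKM in q1, and Stat3 at 86.9 FPKM in q2 and 96.2 FPKM in q1 in the authors' deposited table. Osm, which encodes another cytokine of the IL-6 family, came closest, at 21.1 FPKM in q2 and 5.23 FPKM in q1 in the authors' deposited table (log2 fold change 2.01, Cuffdiff q = 0.0565). Csf3r was listed at 11.6 FPKM in q2 and 4.76 FPKM in q1 in the authors' deposited table (unadjusted Cuffdiff p = 0.00445). It is also among the neutrophil markers given above. Jak2, which encodes a kinase of these receptors, lay the other way. It was listed at 8.999 FPKM in q2 and 16.3 FPKM in q1 in the authors' deposited table, with an unadjusted Cuffdiff p of 0.0217.

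The rest of the pathway was read from 9 lists with 142 distinct tested genes reported here outside the 10. By the authors' Cuffdiff q, 2 of these were higher in q2 and none lower, or 1.41% beside 0.612% of all tested genes. Of the 91 calls over all tested genes, 74 were higher in q2 and 17 lower. At an unadjusted p below 0.05, 12 of the pathway genes were higher and 2 lower, or 9.86% beside 5.99%. Over all tested genes, 553 were higher and 337 lower at that threshold. By list, other NF-kB target genes held 4 higher and 1 lower, and the Stat3 axis 2 higher and 1 lower. Adhesion partners held 3 higher, ligands and receptors 2, adaptors and kinases 1, and the remaining lists none. Among ligands and receptors, Il1b, the inflammatory cytokine interleukin-1 beta, alone of 17 tested genes passed and rose to 125 FPKM in q2, against 39.3 FPKM in q1 in the authors' deposited table (q = 0.0201). Tnf was listed at 18.003 FPKM in q2 and 8.61 FPKM in q1 in the authors' deposited table without passing (unadjusted p = 0.0374). Their receptor genes Il1r1, Tnfrsf1a and Tnfrsf1b lay at -0.15, -0.05 and 0.07 on the log2 scale in the authors' deposited table.

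No adaptor or kinase gene passed among 23 tested, with 11 above and 12 below 0 and a median of -0.05. Myd88, the adaptor of Toll-like and IL-1 receptors, was listed at 100.7 FPKM in q2 and 96.4 FPKM in q1, and Birc3, a ubiquitin ligase of the TNF receptor complex, at 48.0 FPKM in q2 and 29.6 FPKM in q1 in the authors' deposited table. The kinase genes Chuk, Ikbkb and Ikbkg lay at -0.27, -0.22 and 0.25 on the log2 scale in the authors' deposited table. Of 17 other tested feedback inhibitors, none passed or had an unadjusted p below 0.05, with 8 above and 9 below 0. The phosphatase gene Dusp1 was listed at 238 FPKM in q2 and 249 FPKM in q1, and Tax1bp1, a partner of the Tnfaip3 protein, at 108 FPKM in q2 and 113 FPKM in q1 in the authors' deposited table.

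Among 23 other tested NF-kB target genes, Mmp9, a gelatinase abundant in neutrophils, alone passed and rose to 32.0 FPKM in q2, against 9.16 FPKM in q1 in the authors' deposited table (log2 fold change 1.80, Cuffdiff q = 0.0108). The list had 17 genes above and 6 below 0 and a median of 0.39, beside -0.01 over all tested genes and -0.12 over the 10 genes described here. The chemokine genes Cxcl1 and Cxcl2 were listed at 790 and 257 FPKM in q2, against 462 and 89.9 FPKM in q1 in the authors' deposited table, and did not pass. Ier3 and Irf1, both rapidly induced through NF-kB, lay at -0.06 and 0.02 on the log2 scale in the authors' deposited table. The summed neutrophil and monocyte marker levels given above moved with these calls too, and their part in them was not tested.

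**Figure D5:**
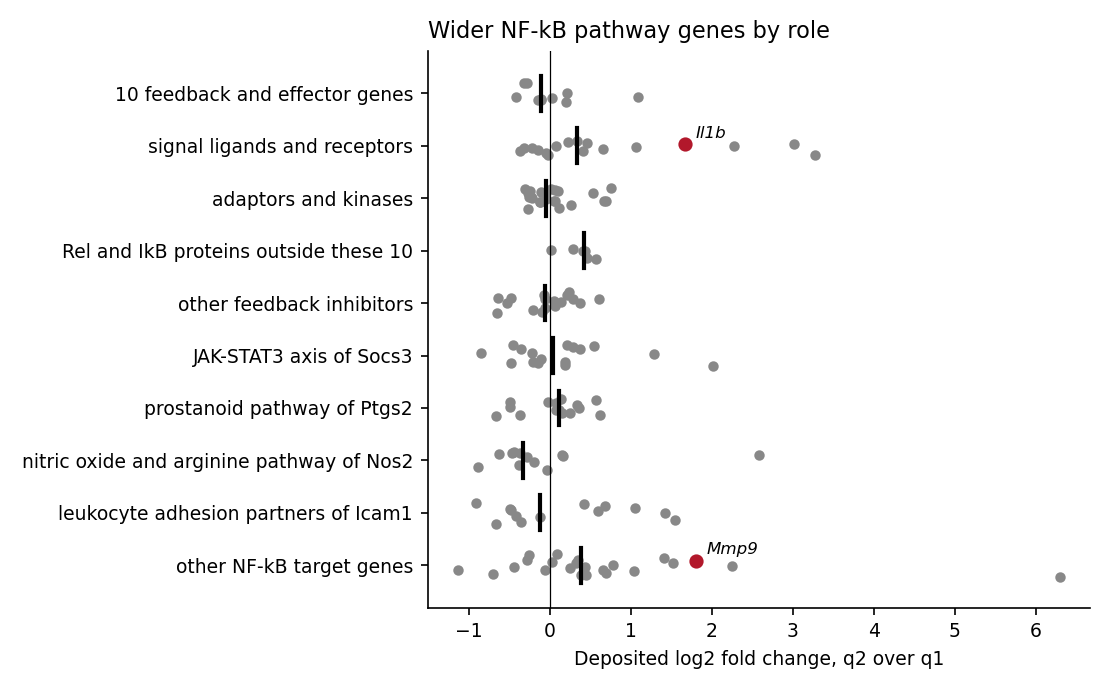
Deposited log2 fold change of q2 over q1 (x axis) for each tested gene of 9 pathway lists and for the 10 feedback and effector genes (points; black bars are medians), with genes called at q below 0.05 in red. The called genes are Il1b and Mmp9, and none of the 10 genes is called.

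Markers of satellite cells, the cells of the label, ranged widely in level. Sdc4, the sorting marker, and Vcam1 were the most abundant, at 270 and 65.1 FPKM in q2, against 173 and 90.8 FPKM in q1 in the authors' deposited table. Itga7 and Myf5, an integrin gene and a myogenic transcription factor gene, were listed at 26.3 and 17.8 FPKM in q2, against 31.8 and 16.7 FPKM in q1 in the authors' deposited table. The other 6 of the 10 markers lay below the median tested gene in both conditions. Among them, Pax7 and Myod1, the transcription factors that define these cells and their commitment, were listed at 0.85 and 0.88 FPKM in q2, against 1.16 and 0.63 FPKM in q1 in the authors' deposited table. None of 10 satellite cell markers was called, with 5 above and 5 below 0. Fibroblast genes (Gsn at 2822 FPKM in q2 and 3583 FPKM in q1, Dcn at 1407 FPKM in q2 and 1259 FPKM in q1) and pericyte or smooth muscle genes (Rgs5 at 3553 FPKM in q2 and 2279 FPKM in q1, Tagln at 405 FPKM in q2 and 544 FPKM in q1) were abundant in the authors' deposited table. Which cells carried the 10 genes was not tested.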

How the data were processed

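The submitters' processing notes name TopHat2 2.0.9, Cufflinks 2.2.1 and the build mm9. The authors deposited 1 table in the layout of Cuffdiff, with pooled values (on the FPKM scale that Cuffdiff writes; the headings name no unit), a log2 fold change, a test statistic (a score, not used), and p-values with q-values, per the file headers. Positions were those of GRCm38: 99.9% of 13873 genes matched by symbol and chromosome overlapped the GENCODE vM21 gene. Starts are given 1-based. Adjusting the deposited p-values over all tested genes (Benjamini-Hochberg) gave the deposited q-values within 0.0001. Another 8499 genes were not tested by the authors and 4 had status HIDATA. Tests between samples were not run, since values per sample were not analysed here.

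A gene counted as called at a deposited q below 0.05. The 10 genes and all lists were chosen with earlier results of these data known; 1 gene of a pathway list and 1 sequence are not reported here. Named from each pathway list were its called genes or else the 2 most abundant by the mean of both conditions, and from each marker list the 2 most abundant; other genes were named after their values were seen. Because 2 pooled values give no pattern, no genes of like pattern were sought. The adjustment was tested on simulated data. Alternatives covered the q threshold, unadjusted p, low values, a minimum fold, pseudocounts and centring. Python 3.11.15, pandas 2.3.3, numpy 2.4.6 and scipy 1.17.1 were used.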

Additional observations from a re-analysis of the deposited data

How the results depend on the processing

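None of the 10 genes was called by the authors' Cuffdiff q below 0.05, below 0.1 or below 0.01, with a 2-fold minimum, or among genes reaching 1 FPKM in a condition with p-values adjusted again; at an unadjusted p below 0.05 there was 1, Ptgs2. No other tool was run. Over all tested genes the count of 91 became 890 at an unadjusted p and 0 at a q below 0.01, since the smallest deposited q is 0.0108; the pathway lists had 2 calls, against 14 at an unadjusted p and 0 at a q below 0.01, where the 12 called markers also became 0. Of 30 log2 fold changes recomputed with a pseudocount of 1 or 0.1 or after centring, none changed sign and 29 moved by less than 0.1; that of Ptgs2 became 0.93 with a pseudocount of 1. No paired analysis was possible because the table holds pooled values only, and for the same reason no replicate could be left out. Depth is unknown, so no limit of detection is given.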

Other observations

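The anti-apoptotic Bcl2a1 genes, which NF-kB induces, are near-identical copies among which reads can be split, so their single values are uncertain. In the authors' deposited table Bcl2a1b was listed at 9.15 FPKM in q2 and 4.45 FPKM in q1, Bcl2a1d at 2.87 FPKM in q2 and 1.09 FPKM in q1 and Bcl2a1a at 1.59 FPKM in q2 and 1.22 FPKM in q1, and none passed. The acute phase gene Saa3 was listed at 11.6 FPKM in q2 and 0.15 FPKM in q1 there, the largest log2 fold change of the target gene list at 6.30, yet its Cuffdiff p was 0.204. Vegfc, a lymphatic growth factor gene of the same list, was listed at 14.6 FPKM in q2 and 32.3 FPKM in q1 in the authors' deposited table (unadjusted p = 0.0036) and did not pass.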
